A study of Triticum aestivum with 12 samples.

Results

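The TaFAR4 genes are homologues of a wheat fatty acyl-CoA reductase, and 3 of the 4 TaFAR4 genes in the study's list of wax genes were expressed in the flag leaf. These 3 genes are TraesCS4B02G363100 on chromosome 4B, TraesCS4D02G356300 on 4D and TraesCS5A02G531300 on 5A, out of 107411 genes in the deposited table. They were chosen by homology and by being expressed in these samples, not by how they differ between varieties, although earlier results of these data were known. The other gene, TraesCS5B02G238300, was at 0 in all 12 libraries, a count that leaves room for at most 3 reads (between 2.40 and 3.72 normalized counts, counting error only). Flag leaves of 4 spring bread wheat varieties were sequenced under control conditions, with 3 replicates of each. The varieties were AAC Starbuck and AAC Concord, bred for the Western Canadian ecozone, and AAC Magnet and AAC Tradition, bred for the Eastern ecozone. AAC Starbuck and AAC Magnet were the later releases of each ecozone. The labels describe pairs of leaves taken from field plots, whereas the paper places the plants used for gene expression in a greenhouse, and the values do not settle which holds. The labels do not tie a replicate to a plot, so p-values measure the spread between these libraries. Leaf markers were not checked, because the identifiers carry no gene names.

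Fatty acyl-CoA reductases sit on the alcohol-forming branch of wax synthesis. They reduce very-long-chain acyl-CoAs to primary alcohols, which are deposited on the leaf surface or joined to fatty acids as wax esters. The same acyl chains also feed the alkane-forming branch, in which CER1 proteins take part, and the wheat enzymes differ in the chain length they prefer when expressed in yeast. Bread wheat is hexaploid, so most genes exist as homoeologues on the A, B and D subgenomes. Because of an ancestral exchange between 4A and 5A, genes at the end of the long arms of 4B and 4D commonly have their A-subgenome partner on 5A. The expressed TaFAR4 genes lie on these chromosomes.

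From the step between low values, the libraries held an estimated 4484411 to 7095220 reads assigned to genes. The 3 genes were covered by 18 to 131 reads each. Divided by the value of 1 read, 34 of their 36 values lay within 0.05 of a whole number and the farthest was 0.0728 away. Levels are given in normalized counts, which are not corrected for gene length. A share of the summed TaFAR4 counts is therefore compared between varieties only, and does not rank the homoeologues by transcripts per gene. In these bulk samples, fewer cells that express a gene and less RNA per cell cannot be told apart.

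The balance between the homoeologues differed between the varieties, and the share of the 5A gene showed it most clearly. The 3 shares of a library add up to the whole, so they are not separate results. A share can also move without a change in that gene's own level. The level of the 5A gene, given below, overlapped in all pairs of varieties. TraesCS5A02G531300 supplied 16.8% ± 2.95 (SD, n = 3) of TaFAR4 counts in AAC Concord, 23.8% ± 3.32 in AAC Magnet, 31.6% ± 2.90 in AAC Starbuck and 32.8% ± 4.28 in AAC Tradition. By replicate, its share was 19.7%, 16.9% and 13.8% in AAC Concord and 26.04%, 25.4% and 20% in AAC Magnet. In AAC Starbuck it was 34.9%, 30.1% and 29.7%, and in AAC Tradition 36.5%, 28.1% and 33.7%. Neither AAC Concord nor AAC Magnet overlapped with any other variety, whereas AAC Starbuck and AAC Tradition overlapped with each other. Of the squared deviation of this share, 84.2% lay between varieties (exact permutation test over 15400 partitions, two-sided, p = 0.0019, adjusted p = 0.0056 over the 3 shares, n = 3 per variety). A share is taken within a library, so scaling of the libraries cannot alter it. It does depend on how reads were divided between the homoeologues against a common reference. Whether that division differed between varieties was not tested. How often the shares of other homoeologue groups differ between these varieties was not counted.

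**Figure D1:**
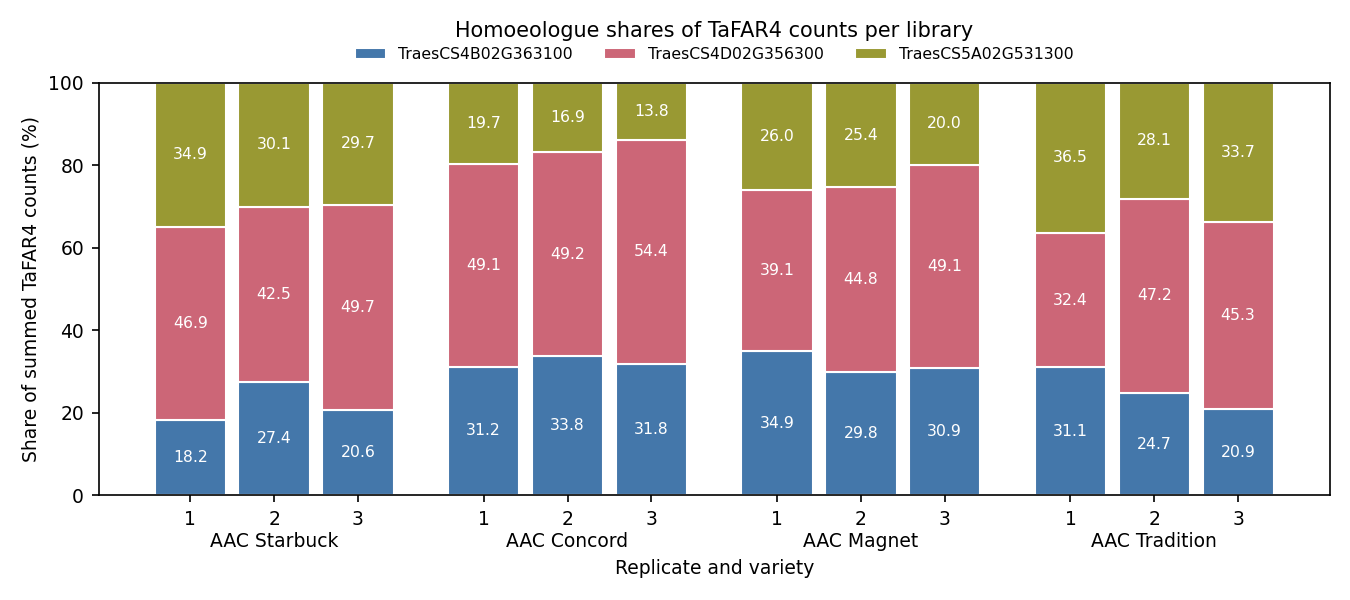
Share of the summed TaFAR4 normalized counts (y axis, percent) taken by each homoeologue in each of the 12 libraries (x axis, replicate and variety); colours mark the genes and the printed numbers are the shares. The top segment, TraesCS5A02G531300, is between 13.8% and 19.7% in AAC Concord and between 28.1% and 36.5% in AAC Starbuck and AAC Tradition.

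The share of the 4B gene ran in part opposite to this order, and shares of the same sum are tied to each other. TraesCS4B02G363100 supplied 32.3% ± 1.38 (SD, n = 3) of TaFAR4 counts in AAC Concord, 31.9% ± 2.68 in AAC Magnet, 25.6% ± 5.13 in AAC Tradition and 22.1% ± 4.77 in AAC Starbuck. Its share ranged from 18.2% to 27.4% in AAC Starbuck, from 20.9% to 31.1% in AAC Tradition, from 31.2% to 33.8% in AAC Concord and from 29.8% to 34.9% in AAC Magnet. The libraries of AAC Starbuck lay below all those of AAC Concord and AAC Magnet, and AAC Tradition overlapped with AAC Starbuck and AAC Magnet. The exact permutation test gave p = 0.039, and the difference across varieties missed the threshold after adjustment (adjusted p = 0.059 over the 3 shares, n = 3 per variety). Without AAC Starbuck replicate 2 or AAC Tradition replicate 1 it passed, with adjusted p of 0.034 and 0.029.

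The share of the 4D gene varied without a clear order of the varieties. TraesCS4D02G356300 supplied 50.9% ± 3.01 (SD, n = 3) in AAC Concord, 46.3% ± 3.63 in AAC Starbuck, 44.3% ± 5.05 in AAC Magnet and 41.7% ± 8.04 in AAC Tradition (exact permutation test, p = 0.25, adjusted p = 0.25). AAC Tradition held the lowest share, 32.4% in replicate 1, and had 47.2% and 45.3% in its other replicates. AAC Concord replicate 3 held the highest, 54.4%. The 4D gene had the most counts in 11 of 12 libraries, the exception being AAC Tradition replicate 1, in which the 5A gene came first.

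The 4B and 5A genes changed order in counts between the varieties. The ratio of 4B to 5A counts was above 1 in all 6 libraries of AAC Concord and AAC Magnet, from 1.17 to 2.30, and below 1 in all 6 of AAC Starbuck and AAC Tradition, from 0.522 to 0.912. It averaged 1.96 ± 0.361 (SD, n = 3) in AAC Concord, 1.35 ± 0.185 in AAC Magnet, 0.784 ± 0.142 in AAC Tradition and 0.710 ± 0.195 in AAC Starbuck. This division was seen in the values and has no test of its own. A ratio of 1 has no special meaning, because counts are not corrected for gene length. Some libraries lay near it, with 31 reads of 4B and 34 of 5A in AAC Starbuck replicate 2, and 54 and 46 in AAC Magnet replicate 2. Counting error is a large part of each single share. In AAC Tradition replicate 3, the library with the fewest TaFAR4 reads (86), the 95% Wilson interval of the 5A share was 24.6% to 44.2%, and in AAC Concord replicate 2, with the most (266), it was 12.9% to 21.9%. The SD between replicates of the 5A share, 2.90 to 4.28 points, was close to the mean counting error of 2.45 to 4.14 points in the same varieties. Without the third replicates, which a later paragraph describes, the 5A share was 18.3% in AAC Concord and 25.7% in AAC Magnet, and 32.5% and 32.3% in AAC Starbuck and AAC Tradition. With these 8 libraries the exact permutation test gave p = 0.048, or 0.14 adjusted over the 3 shares, where 0.0095 is the smallest unadjusted p possible.

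The levels behind these shares differed most for the 4B gene. TraesCS4B02G363100 had 28.8, 32.2 and 25.6 normalized counts in AAC Starbuck, 63.8, 74.2 and 61.2 in AAC Concord, 70.2, 64.5 and 48.0 in AAC Magnet and 57.0, 43.7 and 19.9 in AAC Tradition. All libraries of AAC Starbuck were below those of AAC Concord and AAC Magnet. Those of AAC Tradition spanned the range of AAC Starbuck and part of that of AAC Magnet, and lay below AAC Concord. The fold between its highest library, AAC Concord replicate 2, and its lowest, AAC Tradition replicate 3, was 3.73.

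TraesCS4D02G356300 had 74.1, 49.8 and 61.5 normalized counts in AAC Starbuck, 100.4, 108 and 105 in AAC Concord, 78.6, 96.7 and 76.5 in AAC Magnet and 59.5, 83.4 and 43.1 in AAC Tradition. AAC Concord (104 ± 3.84, SD, n = 3) stood above all libraries of the other varieties. AAC Magnet lay above AAC Starbuck without overlap, and AAC Tradition overlapped with both.

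TraesCS5A02G531300 had 55.2, 35.3 and 36.7 normalized counts in AAC Starbuck, 40.3, 37.1 and 26.6 in AAC Concord, 52.4, 54.9 and 31.1 in AAC Magnet and 66.9, 49.6 and 32.1 in AAC Tradition. In contrast to its share, its level overlapped between varieties in each of the 6 pairs. Its mean was 34.7 ± 7.18 (SD, n = 3) in AAC Concord, 42.4 ± 11.1 in AAC Starbuck, 46.1 ± 13.1 in AAC Magnet and 49.6 ± 17.4 in AAC Tradition, so neighbours in this order differ by less than their spread.

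**Figure D2:**
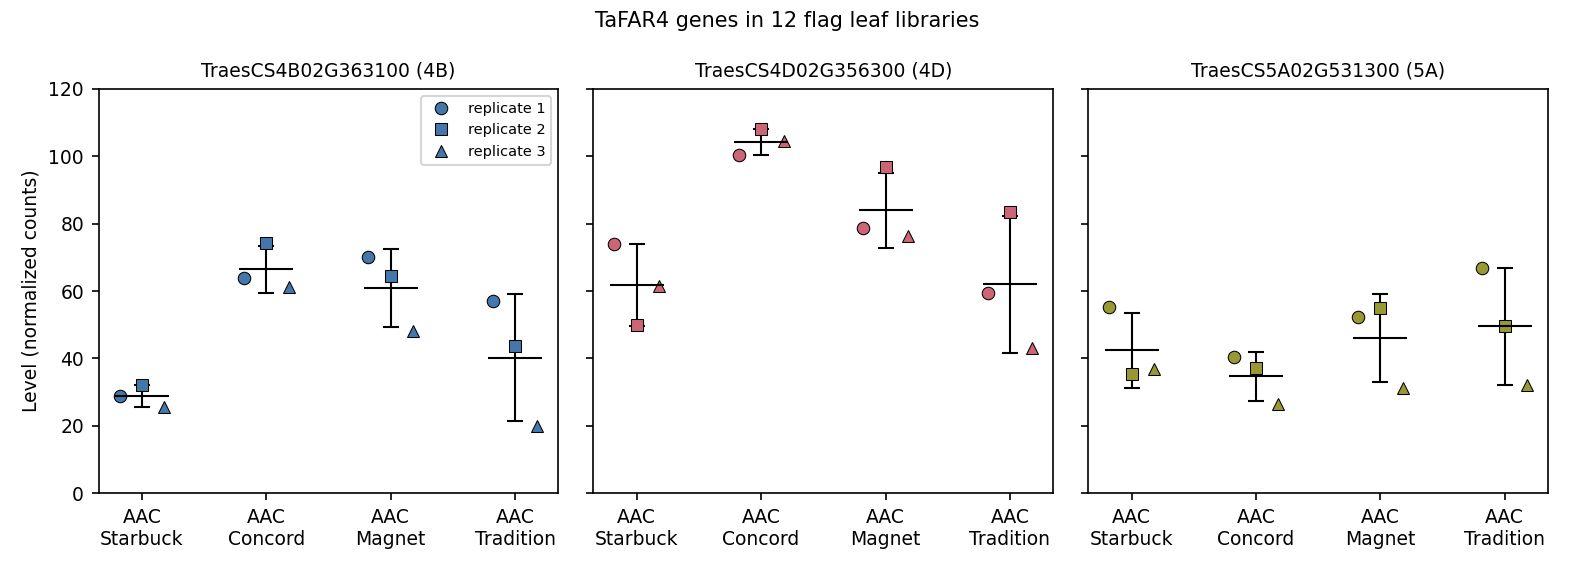
Level of each TaFAR4 gene (y axis, normalized counts) in each library, by variety (x axis); symbols mark the replicate, the wide bar is the mean and the error bar 1 SD (n = 3). The 4B gene lies between 25.6 and 32.2 in AAC Starbuck against 61.2 to 74.2 in AAC Concord, whereas the 5A gene overlaps in all pairs of varieties.

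For the differences between varieties, limma was fitted to log2(normalized count + 1) of 44043 genes. Of 18 tests, 3 genes in 6 pairs of varieties, 1 was called. A call needs an adjusted p under 0.05 and a change of more than 1 on the log2 scale in either direction. TraesCS4B02G363100 was lower in AAC Starbuck than in AAC Concord, with a log2 fold change of -1.18 (standard error 0.32, limma's adjusted p = 0.033), or 2.26-fold. In this comparison 3.45% of all genes tested were called lower and 5.54% higher, so the call of 1 gene of 3 is read against that background. Before adjustment, 5 of the 18 limma tests had p under 0.05, but the share of all genes under that limit was not counted. The count is therefore not read as a result about these genes. In the other pairs none of the 3 genes was called by limma, against 4.97% of all genes in AAC Starbuck and AAC Tradition, 6.12% in AAC Starbuck and AAC Magnet, 6.21% in AAC Magnet and AAC Tradition, 7.05% in AAC Concord and AAC Tradition and 9.25% in AAC Concord and AAC Magnet. Across the 4 varieties, limma's F test gave the 4B gene an adjusted p of 0.047, and 22.1% of all genes passed that test.

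The call of the 4B gene is close to the threshold. It was lost when all libraries were brought to 1 common total (log2 fold change -1.07, limma's adjusted p = 0.053), without a filter on low values (adjusted p = 0.056), and when any 1 of the 6 libraries of AAC Starbuck or AAC Concord was left out (adjusted p of 0.067 to 0.098 from limma). Without AAC Tradition replicate 3 the adjusted p was 0.0027. The direction was the same in every setting, with log2 fold changes of -1.26 to -1.07.

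The next differences in size were not called. Between AAC Starbuck and AAC Magnet the 4B gene differed by -1.04 on the log2 scale (standard error 0.32, limma's adjusted p = 0.074). That difference passed without AAC Tradition replicate 3 (adjusted p = 0.0084 from limma), without AAC Tradition replicate 1 (0.046) and in a fit of both varieties alone (0.034). For the 4D gene the log2 fold change was -0.76 between AAC Starbuck and AAC Concord (adjusted p = 0.053, standard error 0.23) and 0.79 between AAC Concord and AAC Tradition (adjusted p = 0.058), both from limma and both within the limit on the fold change. Without AAC Tradition replicate 2, the latter reached 1.03 with an adjusted p of 0.019. For TraesCS5A02G531300 the 6 log2 fold changes lay between -0.46 and 0.27, with limma's adjusted p of 0.41 to 0.92. Their 95% intervals reached from -1.15 to 0.96, past the limit on the fold change below 0 and just short of it above.

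**Figure D3:**
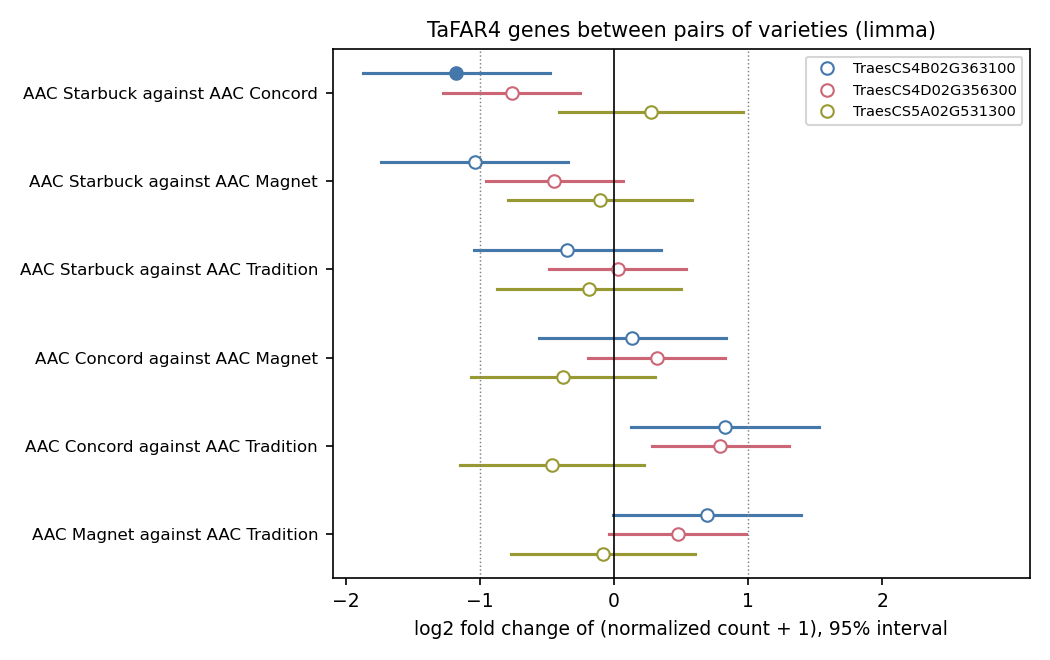
Log2 fold change of each TaFAR4 gene (x axis, first variety against second, with limma's 95% interval) for the 6 pairs of varieties (y axis); the filled point passed the test, open points did not, and dotted lines mark the limits of -1 and 1. The filled point is TraesCS4B02G363100 in AAC Starbuck against AAC Concord at -1.18.

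Non-overlap of libraries was frequent in this table, and whether the TaFAR4 genes differ from other genes in it was not tested. Levels did not overlap in 3 of 6 pairs for the 4B gene, 4 of 6 for the 4D gene and 0 of 6 for the 5A gene. Among all genes tested, the share without overlap was 31.5% in AAC Starbuck against AAC Concord, 26.8% against AAC Magnet and 27.1% against AAC Tradition. It was 32.9% in AAC Concord against AAC Magnet and 29.0% in each of the other comparisons with AAC Tradition. By ecozone, none of the genes was called by limma in the Western against the Eastern pair (log2 fold changes of -0.11 for 4B, 0.17 for 4D and -0.28 for 5A), where 4.97% of all genes were called. By release, the later against the earlier pair gave -0.24, -0.15 and 0.10, where 5.83% of all genes were called. In neither contrast was any unadjusted p of limma under 0.05 (0 of 3 genes each). Each side of these contrasts was a single pair of varieties, and the tests used the spread between libraries. They describe these varieties and not an ecozone or a period of release.

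Summed over the homoeologues, AAC Concord had 205 ± 13.5 normalized counts of TaFAR4 (SD, n = 3), followed by 191 ± 31.5 in AAC Magnet, 152 ± 49.2 in AAC Tradition and 133 ± 21.9 in AAC Starbuck. The replicates had 205, 219 and 192 in AAC Concord, 201, 216 and 156 in AAC Magnet, 183, 177 and 95.1 in AAC Tradition and 158, 117 and 124 in AAC Starbuck. AAC Concord lay above every AAC Starbuck and AAC Tradition library and overlapped with AAC Magnet. AAC Magnet overlapped with AAC Starbuck by a single library, replicate 3 at 156 against a highest value of 158. The ratio of means was 1.54 for AAC Concord over AAC Starbuck. With all libraries at 1 common total, AAC Concord and AAC Magnet were at 198.2 and 198.5. Neighbours in the order AAC Concord, AAC Magnet, AAC Tradition and AAC Starbuck overlapped, and the sum was given no test. The primary alcohol content of these varieties was not analysed here, so the sum was not set against it.

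**Figure D4:**
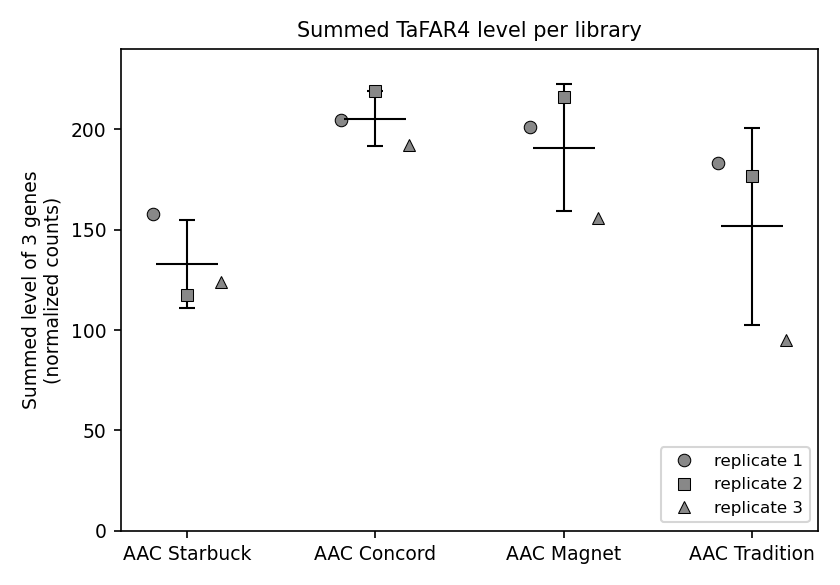
Summed level of the 3 TaFAR4 genes (y axis, normalized counts) in each library, by variety (x axis); symbols mark the replicate, the wide bar is the mean and the error bar 1 SD (n = 3). The libraries of AAC Concord lie between 192 and 219, and AAC Tradition replicate 3 is the lowest at 95.1.

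The third replicates were low for these genes. Counting each gene in each variety, replicate 3 was the lowest of its variety in 9 of 12 cases (75%), against 33.6% over the 20929 tested genes that averaged 50 or more. The exceptions were the 4D gene in AAC Starbuck and AAC Concord and the 5A gene in AAC Starbuck. The same share, 24 of 32 cases (75%), was found for the 8 other wax genes that pass the filter on low values. The 4B and 5A genes averaged 49.1 and 43.2, below the 50 set for the background of 33.6%. The summed TaFAR4 level of replicate 3 was 52.8% of the mean of its other replicates in AAC Tradition, 74.6% in AAC Magnet, 90.8% in AAC Concord and 89.9% in AAC Starbuck. The labels name no batch for the replicate number, and results under a block on that number are given with the other alternatives. Without them the 4B gene differed by -1.15 on the log2 scale between AAC Starbuck and AAC Concord (limma's adjusted p = 0.023), and was also called in AAC Starbuck against AAC Magnet (-1.12, adjusted p = 0.041).

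Between replicates of a variety the 4B and 5A genes tended to deviate together, more by values than by tests. After the variety means were removed, Pearson's r over the 12 libraries was 0.76 for 4B and 5A (Spearman's rho 0.64), 0.58 for 4D and 5A (0.52) and 0.52 for 4B and 4D (0.38). Exact permutation tests over all orders within varieties gave p of 0.027, 0.16 and 0.49 for r and 0.10, 0.20 and 0.39 for rho. Adjusted over the 3 pairs these were 0.081, 0.24 and 0.49 for r, and 0.30, 0.30 and 0.39 for rho, so none passed. Leaving out the pair of libraries farthest from the median gave r of 0.61, 0.62 and 0.03 in the same order. The relation of 4B and 4D turned without AAC Tradition replicate 3, where r was -0.25, and that of 4B and 5A passed without AAC Starbuck replicate 2 (r = 0.84, adjusted p = 0.035, exact permutation test).

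**Figure D5:**
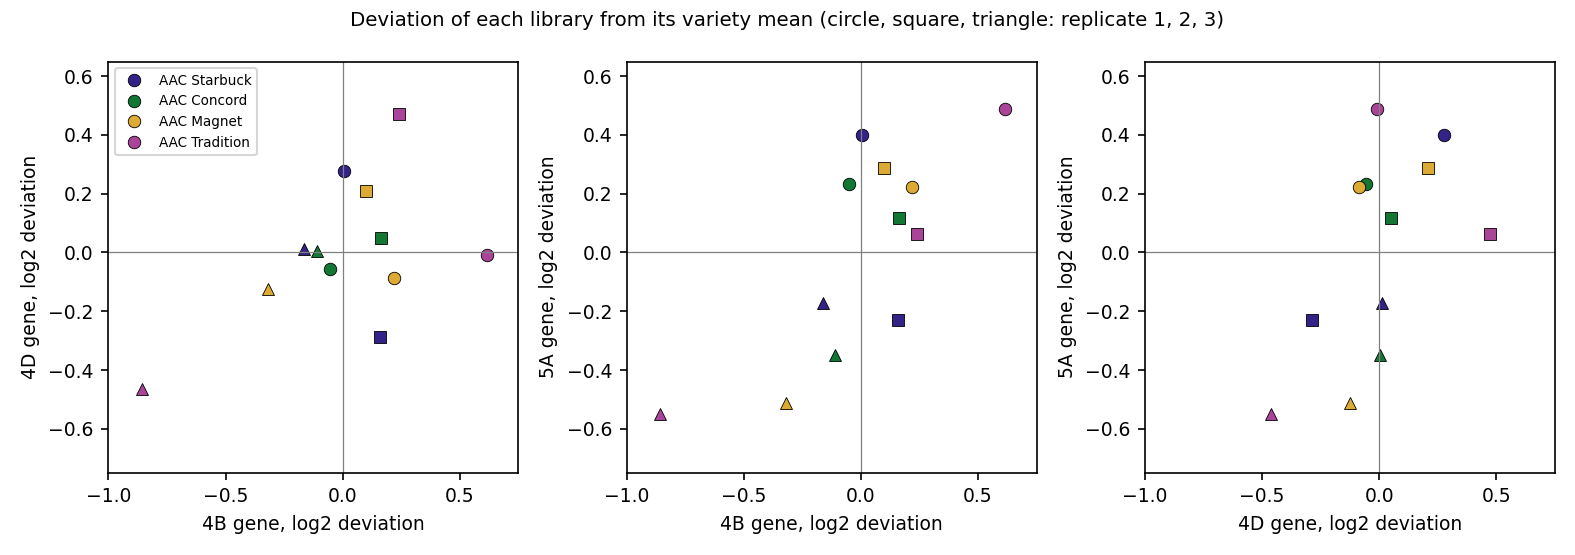
Deviation of each library from the mean of its variety on the log2(normalized count + 1) scale, for each pair of TaFAR4 genes (x and y axes); colours mark the variety and symbols the replicate. The triangles of the third replicates lie below 0 for both the 4B and the 5A gene in all 4 varieties, and AAC Tradition replicate 3 is the farthest point.

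The TaFAR4 genes were near the middle of the genes tested in level, and the 4B and 5A genes varied more between replicates than most. Their means over the libraries, 49.1 normalized counts for 4B, 78.0 for 4D and 43.2 for 5A, stood at percentiles 51.8, 66.2 and 47.9 of all genes tested. The residual SD between replicates on the log2 scale was 0.42 for 4B, 0.29 for 4D and 0.41 for 5A (percentiles 71.0, 47.0 and 69.9), against a median of 0.30 over all genes tested and of 0.21 over genes averaging 50 or more.

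The other genes of the study's wax list add the pathway around TaFAR4, although the study described that list on these samples, so it is no independent evidence of a direction. Of the 36 other genes, 25 were above 0 and tested. Among them were 3 of 9 other FAR genes, all 6 TaCER1 genes of the alkane branch and 16 of 21 genes of the β-diketone clusters. Of these 25 genes, 17 were below the filter on low values that all genes outside the list had to pass. Medians over the lists therefore include genes with low counts, unlike the median over all genes tested. In AAC Starbuck against AAC Concord, where the 4B gene was lower, limma also called the TaFAR2 gene TraesCS4A02G388600 lower (log2 fold change -1.94, adjusted p = 0.044). That gene had 0.831, 1.05 and 1.61 normalized counts in AAC Starbuck and 8.52, 4.11 and 10.46 in AAC Concord, levels of a few reads. The other tested FAR genes, both TaFAR5, were at 0 in every library of this pair. In the same comparison it called the TaCER1-6A gene TraesCS6B02G255100 and the β-diketone cluster gene TraesCS2D02G015700 higher, with 2.55 and 3.73 (limma's adjusted p = 0.0016 and 0.045), against 5.54% of all genes called higher. The median log2 fold change there was 0.23 over the TaCER1 genes, 1.04 over the cluster genes and 0.01 over all genes tested. For the 3 TaFAR4 genes it was -0.76, the value of the 4D gene, with 0.27 for the 5A gene. In other pairs the TaCER1 and TaFAR4 medians could share a sign. They were -0.43 and -0.45 in AAC Starbuck against AAC Magnet. In AAC Concord and AAC Magnet against AAC Tradition they were 0.37 and 0.79, and 0.52 and 0.47. Signs differed in AAC Starbuck against AAC Tradition (0.36 and -0.19) and AAC Concord against AAC Magnet (-0.40 and 0.14).

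Along the chromosomes the TaFAR4 genes stood among genes with little expression. Of the 10 table genes on either side of each, 60 in all, 19 (31.7%) were above 0 in any library and 3 (5.00%) entered the test, against 69.1% and 41.0% of the whole table. The genes next in order to the 4D and 5A genes, TraesCS4D02G356400 and TraesCS5A02G531400, averaged 31.1 and 24 normalized counts. TraesCS4B02G363200, next to the 4B gene, averaged 2.1. These neighbours were named after their values were seen. None of the 3 tested flanking genes was called by limma's F test, where 22.1% of all genes passed, and 1 had an unadjusted p under 0.05.

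Among 20923 tested genes outside the wax list that averaged 50 or more, the pattern most like the 4B gene over the 12 libraries was that of TraesCS3B02G343400 (Pearson's r of log2 values 0.92) and TraesCS1D02G426400 (0.90). For the 4D gene it was TraesCS5B02G235700 (0.96) and TraesCS3D02G380100 (0.94), and for the 5A gene TraesCS7A02G311000 (0.93) and TraesCS4A02G276900 (0.86). TraesCS5B02G235700 averaged 80.9 normalized counts in AAC Concord, 52.6 in AAC Magnet, 40.6 in AAC Tradition and 32.5 in AAC Starbuck. TraesCS3B02G343400, closest to the 4B gene, averaged 193 in AAC Magnet, 180 in AAC Concord, 141 in AAC Tradition and 120 in AAC Starbuck. These are the highest of many correlations across libraries that share variety and depth, and are given as a description.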

How the data were processed

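Reads were trimmed with Trimmomatic and quantified with Salmon against the IWGSC RefSeq v2.1 reference, per the study's methods, although the table carries v1.1-style identifiers. The authors deposited normalized counts, a signal scaled between libraries. Their scaling and tool versions are not given in the sources used here. None (0) of the identifiers matched the 155467 genes of the RefSeq table, so no coordinates or sequences are given. Library totals were 5077330 to 5902642. Low values lay in steps of 0.798 to 1.24, taken as 1 read. Of low values, 84.9% to 91.3% were whole within 0.05 of a step, so whole reads were used for intervals of the members only, and no count model was run.

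Genes with at least 10 in at least 3 libraries, plus 17 detected wax genes below that, were fitted in limma 3.58.1 (R 4.3.3) on log2(value + 1) with variety as the only term. Adjusted p-values follow Benjamini and Hochberg over the 44043 genes of each contrast. Shares and correlations were tested by exact permutation with scipy 1.17.1, numpy 2.4.6 and pandas 2.3.3 under Python 3.11.15, and figures drawn with matplotlib 3.10.9. The fits and permutation tests were tested on simulated data. The members and lists were chosen with earlier results of these data known. Named genes were the members, genes of the wax list, and the 2 genes most correlated with each member. Alternatives were other pseudocounts, filters, scalings, a trend, a replicate block, fits of pairs alone, no limit on the fold change, and each library left out.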

Additional observations from a re-analysis of the deposited data

How the results depend on the processing

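The 5A share kept its call when each library was left out (adjusted p of 0.0021 to 0.024, exact permutation test), as a log2 ratio (0.0037) and with the replicate block (0.016), and lost it without the third replicates (0.14). Adjusted p of the 4B share was 0.029 to 0.12 with each library left out. The 4B gene in AAC Starbuck against AAC Concord ranged from -1.26 to -1.09 with each library left out, and its limma call was lost with no filter (-1.18) and with the same total (-1.07). With the same total, the median of all genes in that pair moved to 0.12, so the difference relative to it was -1.18, and the cause of the lost call was not tested. The 4B gene in AAC Starbuck against AAC Magnet passed with a trend (limma's adjusted p = 0.046), the replicate block (0.038), a fit of that pair alone (0.034), each at -1.04, and without the third replicates (-1.12), and ranged from -1.20 to -0.93 with each library left out. Limma's F test of the 4B gene gave an adjusted p of 0.051 with a pseudocount of 0.5, 0.080 with no filter, 0.056 with the same total, and 0.0061 to 0.11 with each library left out. That of the 4D gene passed at 0.036 with a mean of at least 50 and 0.034 with a trend, and was 0.023 to 0.15 with each library left out. The 4D gene in AAC Concord against AAC Tradition ranged from 0.56 to 1.03.

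Signs of differences that were not called turned with single libraries left out. The log2 fold change of the 4B gene ranged from -0.023 to 0.25 in AAC Concord against AAC Magnet and from -0.32 to 0.048 between ecozones. That of the 4D gene in AAC Starbuck against AAC Tradition ranged from -0.20 to 0.26, and was -0.21 without the third replicates. That of the 5A gene ranged from -0.36 to 0.04 in AAC Starbuck against AAC Magnet, from -0.46 to 0.055 in AAC Starbuck against AAC Tradition, from -0.36 to 0.17 in AAC Magnet against AAC Tradition (0.03 with the same total) and from -0.042 to 0.22 between later and earlier releases. The correlation of 4B and 4D ranged from -0.25 to 0.69 and that of 4B and 5A from 0.66 to 0.84. The summed levels moved by less than their SD under both other scalings. Leaving out 1 library took AAC Tradition from 152 to between 136 and 180.

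Replicate numbers are not known to pair libraries: residuals of same-numbered libraries correlated at -0.14 to 0.21, and 7 of 12 libraries correlated best with their own number. With the replicate block, no call of a TaFAR4 gene was lost, and that of the 4B gene against AAC Magnet was gained. The numbers of genes called moved by over 1.5 times with a mean of at least 50, from 3963 to 1332 in AAC Starbuck against AAC Concord, 2694 to 900 against AAC Magnet, 2188 to 850 against AAC Tradition, 4076 to 1513 in AAC Concord against AAC Magnet, 3103 to 1117 against AAC Tradition, 2734 to 967 in AAC Magnet against AAC Tradition, 2187 to 659 between ecozones, 2567 to 739 between releases and 9746 to 6080 in the F test, where fewer genes were tested. With no limit on the fold change they were 6162 in AAC Concord against AAC Magnet, 4295 between ecozones and 5958 between releases. Without the third replicates, a setting chosen after seeing the data, they were 1564 in AAC Starbuck against AAC Magnet, 1143 against AAC Tradition, 1690 in AAC Magnet against AAC Tradition and 4680 in the F test. Scaling to the same total changed the calls of AAC Starbuck against AAC Tradition from 1082 up and 1106 down into 1379 up and 936 down. With 18 to 131 reads per gene and library, counting error limits each single share.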
